A study of Mus musculus with 18 samples.

Results

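The comparison set cortex of *Nova2-/-* mice against cortex of their wild-type littermates at embryonic day 18.5, close to birth. Its members were chosen by genotype, region and replicate number as labelled: 3 *Nova2-/-* and 3 wild-type mice, 6 of the 18 RNA-seq samples of the series. The *Nova2-/-* allele carries an *IRES-Cre-FRT-Neo-FRT* cassette in place of the coding exon with the initiator ATG, from which the Neo marker was later removed by Flp. The line was made in embryonic stem cells, obtained on a different background and then backcrossed, among others to CD-1, an outbred stock, which the labels give as the strain of these mice. Littermates of an outbred stock are not genetically identical, and the allele is present in every cell from conception on. The RNA came from whole dissected cortex, not from sorted cells, so that a lower level of a transcript can mean fewer cells of a type or less RNA per cell, which bulk RNA cannot tell apart. The question was which transcripts, gene families and cell types changed in abundance, across all genes.

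NOVA1 and NOVA2 are RNA-binding proteins of neurons that recognize clusters of a short motif in precursor RNA and steer the choice of exons. NOVA2 is the main family member of the cortex, and NOVA1 prevails in midbrain, hindbrain and spinal cord. Both act mostly on splicing, and a change of splicing alone need not alter the total number of reads of a gene, which is what was measured here. The embryonic cortex consists mostly of neurons and their progenitors, crossed by vessels and covered by the leptomeninges, a thin sheet of fibroblasts that secretes collagen, retinoic acid and BMP proteins.

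The deposited table holds expected counts for 23038 gene symbols. Totals lay between 21969621 and 22326110 counts in *Nova2-/-* mice, and were 25856022, 16518172 and 29940234 in wild-type mice 1, 2 and 3. The wild-type mice differed among themselves. Wild-type mouse 2 had the lowest total and yet a count for 21791 genes, against 18788 to 19396 in the others. *Xist*, the RNA that coats the inactive X chromosome of females, stood at 1561 CPM in wild-type mouse 1, at 4.22 and 11.6 in wild-type mice 2 and 3, and at 1838, 1812 and 1929 in *Nova2-/-* mice 1 to 3. The 4 Y-linked transcripts tested summed to 474 and 448 CPM in wild-type mice 2 and 3, to at most 0.449 CPM in wild-type mouse 1 and *Nova2-/-* mice 1 and 2, and to 19.9 CPM in *Nova2-/-* mouse 3, which thus had high *Xist* beside a low level of Y-linked RNA. Genotype and *Xist* level were therefore partly confounded. CPM is the count scaled to a library of fixed size, after TMM.

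The targeted gene was followed first. *Nova2* stood at 31.3, 31.6 and 41.0 CPM in the wild-type mice and at 17.1, 17.95 and 21.8 CPM in the *Nova2-/-* mice. The groups did not overlap, and transcript was left in every *Nova2-/-* mouse. The counts are per gene and do not separate the replaced exon from the exons downstream of it. In log2 terms it fell by 0.87 (standard error 0.14, adjusted p = 0.0373, edgeR's quasi-likelihood F test (Benjamini-Hochberg)), and it lost its call in 5 of the 6 fits that left out 1 mouse. The paralogue *Nova1* was at 78.0, 62.8 and 93.2 CPM in wild-type mice and at 84.9, 76.8 and 90.1 CPM in *Nova2-/-* mice. These ranges overlapped, with a log2 fold change of 0.10 (standard error 0.14). It became -0.03 without wild-type mouse 2. Of the 23 transcripts of NOVA and other neuronal splicing regulators, such as *Rbfox2*, *Ptbp2* and *Celf2*, *Nova2* alone passed the test, and their median log2 fold change was 0.06.

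Of 15691 genes tested, 166 passed an FDR below 0.05 by edgeR's quasi-likelihood F test (Benjamini-Hochberg), 1.06% of all. They comprised 109 that rose, 0.695% of the genes tested, and 57 that fell, 0.363%. With a log2 fold change of 1 or more in either direction there were 41, or 0.261%, with 32 higher (0.204%) and 9 lower (0.0574%). In all 166, the 3 *Nova2-/-* mice lay outside the range of the 3 wild-type mice. Such separation without any call was frequent: the *Nova2-/-* mice lay above all wild-type mice in 13.5% of the genes tested and below them in 13.2%. The median log2 fold change of all genes tested was 0.01. Of the 166, 35 had a log2 fold change of at most 0.5 in size. The plot of the change against the level shows called genes over the whole range of abundance.

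**Figure D1:**
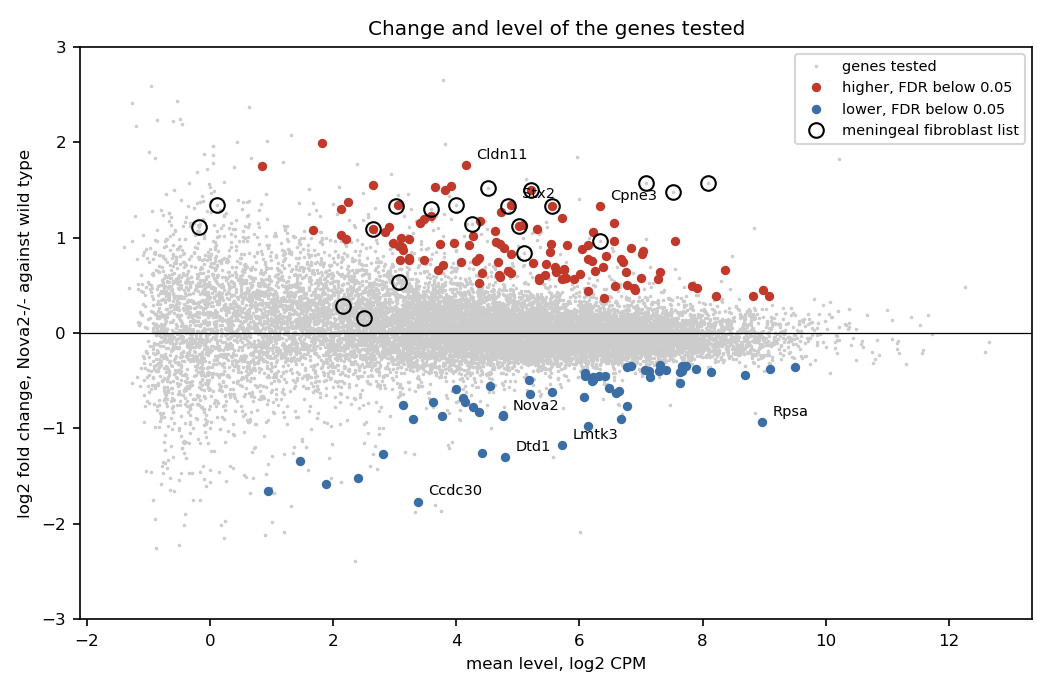
Log2 fold change of *Nova2-/-* over wild-type cortex (vertical axis) against the mean level as log2 CPM (horizontal axis), 1 grey point for each gene tested. Red points are the 109 genes that rose and blue points the 57 that fell at an FDR below 0.05, black rings mark the 20 meningeal fibroblast markers, which all lie above 0, and 14 genes beyond the axis of -3 to 3 are not shown.

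The calls changed when single mice were left out, which also leaves fewer mice to test. When each of the 6 mice was left out in turn, 134 of the 166 transcripts were called in at most 1 of the 6 fits, and 5 were called in all 6: *Cpne3*, *Stx2* and *Cdk5rap2*, which rose, and *Rab12* and *Dtd1*, which fell. Without wild-type mouse 3 the count rose to 1433, whereas leaving out any of the other mice gave 7 to 26. With the log2 level of *Xist* as a covariate, none of the 166 were called by edgeR's quasi-likelihood F test (Benjamini-Hochberg), and 1779 genes had an unadjusted p below 0.05 (lowest adjusted p 0.126). In that fit all 166 kept the sign of their change, and their changes had a median size of 0.79 against 0.76 in log2 units. The part of sex in the differences below was not tested beyond this fit.

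*Cpne3* encodes a copine, a protein that binds membrane lipids when calcium rises. It stood at 46.1, 44.7 and 45.9 CPM in wild-type mice and at 125, 117 and 103 CPM in *Nova2-/-* mice. The wild-type mice were nearly equal and the knockout mice far above them, and the log2 change was 1.33 (standard error 0.09, adjusted p = 0.00275, edgeR's quasi-likelihood F test (Benjamini-Hochberg)). *Stx2*, a syntaxin of membrane fusion at the cell surface, was at 16.9, 17.2 and 16.04 CPM against 46.0, 42.8 and 38.8 CPM, an equally even log2 rise of 1.35 (standard error 0.10, adjusted p = 0.00329). *Cdk5rap2*, a centrosome protein whose loss causes microcephaly, was at 74.5, 74.0 and 77.4 CPM against 127, 127 and 132 CPM, a smaller but even shift of 0.77 (standard error 0.06, adjusted p = 0.00495). In the other direction went *Rab12*, a small GTPase of endosomes and lysosomes. It fell from 137, 133 and 129 CPM to 75.2, 73.2 and 65.4 CPM (log2 fold change -0.90, standard error 0.08, adjusted p = 0.00495). *Dtd1*, which clears D-amino acids from mischarged tRNA, fell from 35.9, 38.8 and 42.8 CPM to 16.9, 16.9 and 13.9 CPM (log2 fold change -1.30, standard error 0.12, adjusted p = 0.00501). None of these 5 is a marker of vessels or meninges in the lists used below. They lie on chromosomes 4, 5, 17 and 2, away from the *Nova2* locus.

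Promoters of 4 of the 5 transcripts were found in RefSeq tables of GRCm38.p6, the build also known as mm10. They are shown because these are the transcripts whose calls did not depend on any single mouse. Each runs 5′ to 3′ on the strand of its gene, from 250 bases before to 50 after the start, and capitals mark every TATAAA, every CCAAT and every GGGCGG, the GC box, on either strand. *Stx2* lies on the minus strand at chr5:129008523-129008822, *Cdk5rap2* on the minus strand at chr4:70410386-70410685, *Rab12* on the minus strand at chr17:66519621-66519920 and *Dtd1* on the plus strand at chr2:144599703-144600002.
Stx2: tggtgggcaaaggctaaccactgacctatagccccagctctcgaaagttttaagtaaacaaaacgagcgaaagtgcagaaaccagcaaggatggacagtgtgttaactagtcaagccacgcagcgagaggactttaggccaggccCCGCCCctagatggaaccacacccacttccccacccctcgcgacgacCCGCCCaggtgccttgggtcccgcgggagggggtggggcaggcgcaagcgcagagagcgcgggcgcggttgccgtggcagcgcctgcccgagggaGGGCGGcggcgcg
Cdk5rap2: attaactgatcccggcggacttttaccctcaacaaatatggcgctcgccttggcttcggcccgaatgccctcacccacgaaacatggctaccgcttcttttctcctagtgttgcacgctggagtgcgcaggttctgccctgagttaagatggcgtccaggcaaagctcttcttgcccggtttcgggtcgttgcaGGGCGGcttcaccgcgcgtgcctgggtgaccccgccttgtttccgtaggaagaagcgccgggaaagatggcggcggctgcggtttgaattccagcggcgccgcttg
Rab12: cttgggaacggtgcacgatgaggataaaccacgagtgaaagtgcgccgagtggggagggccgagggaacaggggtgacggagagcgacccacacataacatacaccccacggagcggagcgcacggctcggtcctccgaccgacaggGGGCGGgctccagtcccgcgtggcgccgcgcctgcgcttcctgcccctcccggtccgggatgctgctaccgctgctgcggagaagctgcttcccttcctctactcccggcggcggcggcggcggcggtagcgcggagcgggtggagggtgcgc
Dtd1: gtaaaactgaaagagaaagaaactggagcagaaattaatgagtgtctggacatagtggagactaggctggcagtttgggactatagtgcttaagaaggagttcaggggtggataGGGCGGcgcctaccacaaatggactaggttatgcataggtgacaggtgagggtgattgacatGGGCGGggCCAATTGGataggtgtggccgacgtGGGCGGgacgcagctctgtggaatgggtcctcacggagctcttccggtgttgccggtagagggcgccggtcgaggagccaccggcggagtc
The GC box occurred 3 times in *Stx2*, 1 time in *Cdk5rap2*, 1 time in *Rab12* and 3 times in *Dtd1*, and none of the 4 held TATAAA. *Dtd1* alone of the 4 held CCAAT, 2 times on opposite strands with overlapping letters. Over 10898 tested genes with a promoter in the table, 62.5% held a GC box, 38.7% CCAAT and 7.37% TATAAA. Among 76 called genes that rose these shares were 71.1%, 36.8% and 11.8%, and among 45 that fell 64.4%, 22.2% and 2.22%. These shares are descriptions of letters and carry no test.

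The 12 largest rises past the 2-fold limit included genes of the interferon response, the matrix and secreted signals. *Gbp4*, an interferon-induced GTPase, had the largest rise, from 0.824, 2.35 and 1.14 CPM to 6.19, 4.17 and 6.24 CPM, a log2 change of 1.996 (standard error 0.37). It belongs to a family of near-identical copies, so that its reads may be shared. *Cldn11*, the claudin of myelin and of the arachnoid barrier, rose from 6.51, 6.94 and 10.6 CPM to 29.9, 26.5 and 25.5 CPM (log2 fold change 1.76, standard error 0.19, adjusted p = 0.00977 by edgeR's quasi-likelihood F test (Benjamini-Hochberg)). *Bmp5*, a growth factor of the BMP family, was even within both groups, with 3.14, 3.02 and 3.23 CPM against 8.92, 10.2 and 8.43 CPM (log2 fold change 1.55, standard error 0.15, adjusted p = 0.00652). *Scgn*, a calcium-binding protein of some interneurons, was low throughout, at 0.667, 1.03 and 0.706 CPM against 2.51, 2.20 and 3.23 CPM. Next came 4 genes of the matrix. *Adamts12*, a secreted protease, had a log2 fold change of 1.54, *Lox*, which cross-links collagen, of 1.53, *Sned1*, an interstitial matrix protein, of 1.50, and *Col1a1*, the main chain of type I collagen, of 1.50. *Enpep*, the aminopeptidase of pericytes that cleaves angiotensin, had one of 1.34. *Ppp1r3b*, which directs a phosphatase to glycogen, had one of 1.38.

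In 20 of the 32 transcripts that rose 2-fold, wild-type mouse 3 was the highest of its group (62.5%), against 42.3% of all genes tested. *Lox* is an example, with 4.71 and 5.25 CPM in wild-type mice 1 and 2, 9.12 in wild-type mouse 3, and 19.6, 18.8 and 17.2 CPM in *Nova2-/-* mice. *Sned1* had the same order, with 5.38, 5.37 and 10.97 CPM against 20.9, 20.6 and 20.7 CPM. Wild-type mouse 3 thus stood between its littermates and the knockout mice for both.

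**Figure D2:**
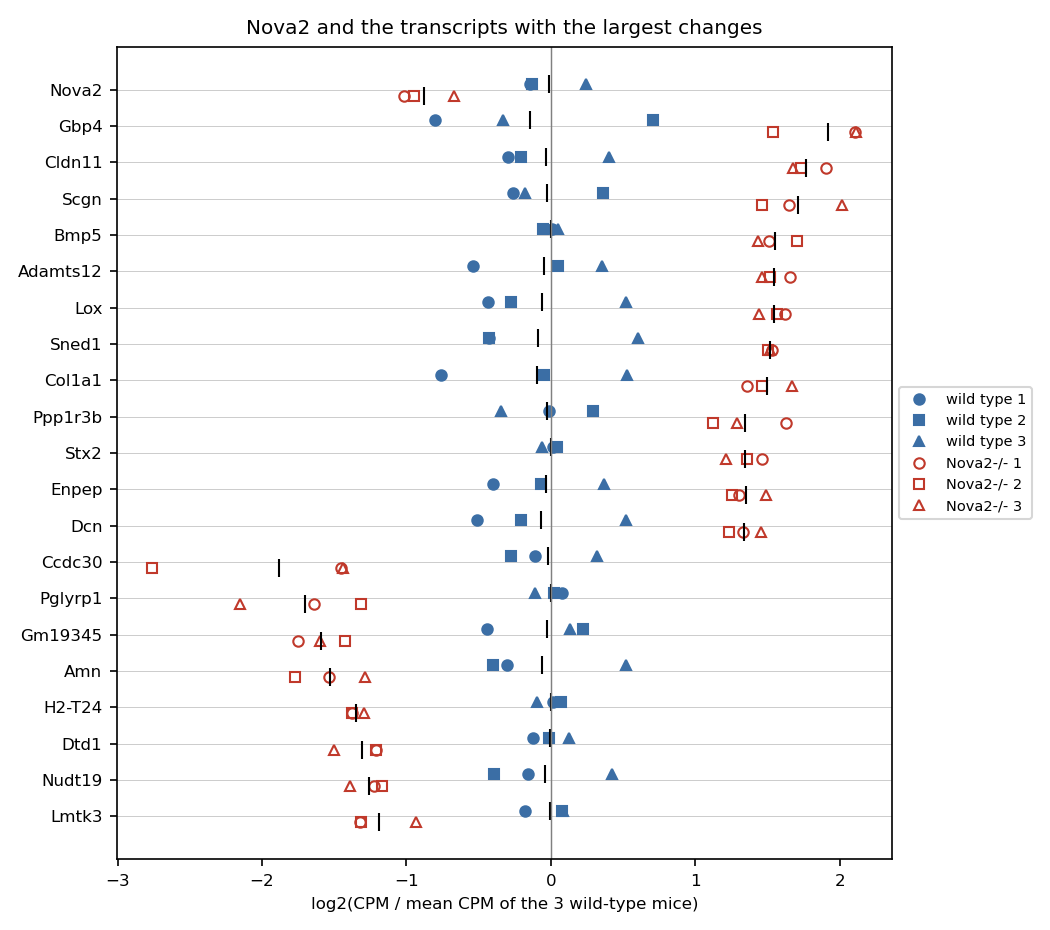
CPM of *Nova2* and of transcripts with the largest changes past both thresholds, each as the log2 ratio to the mean of the 3 wild-type mice (filled, wild-type; open, *Nova2-/-*; black bars, means of the log2 ratios of 3 mice). The groups are apart for each transcript shown, and for *Lox* and *Sned1* the highest wild-type value (9.12 and 10.97 CPM) is that of mouse 3.

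By cell type, the difference was greatest in markers of meningeal fibroblasts. All 20 of them had a log2 fold change above 0, with a median of 1.32 against 0.01 for all genes tested. Their summed level was 328, 398 and 853 CPM in wild-type mice and 1457, 1364 and 1320 CPM in *Nova2-/-* mice. The 3 knockout mice were alike, and wild-type mouse 3 lay between them and the other wild-type mice. Of the 20, 4 passed edgeR's quasi-likelihood F test (Benjamini-Hochberg), namely *Col1a1*, *Dcn*, *Ogn* and *Crabp2*, against 0.695% of all genes that rose, and in 14 the groups did not overlap, against 13.5%. *Dcn*, decorin, which binds collagen fibrils, stood at 18.7, 23.1 and 38.1 CPM against 66.9, 62.6 and 73.1 CPM (log2 fold change 1.34, standard error 0.23). *Ogn*, osteoglycin of the same family, was at 17.7, 21.1 and 22.1 CPM against 55.5, 44.3 and 32.7 CPM (1.12, standard error 0.19). *Crabp2*, a carrier of retinoic acid, was at 3.26, 3.86 and 4.68 CPM against 8.74, 8.75 and 7.76 CPM (1.09, standard error 0.17).

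The most abundant fibrillar collagens had larger differences that missed the threshold. *Col3a1* was at 80.6, 108 and 221 CPM against 390, 342 and 489 CPM, and *Col1a2* at 36.9, 56.1 and 110 CPM against 185, 172 and 250 CPM, each with a log2 fold change of 1.57 (adjusted p = 0.0698 and 0.0772 by edgeR's quasi-likelihood test). In both, wild-type mouse 3 was the highest of its group and stayed below the knockout mice. Without that mouse 17 of the 20 fibroblast markers were called, beside 1433 of all 15874 genes tested. None of the 20 were called without wild-type mouse 1 or 2 or *Nova2-/-* mouse 1 or 2, and 1 without *Nova2-/-* mouse 3. Over all genes these fits called 7 to 26. With *Xist* as a covariate 0 of the markers and 0 of all genes were called. The median stayed between 0.99 and 1.82 when any mouse was left out. How much of the coverings came with each cortex was not recorded in the labels, and its part in these values was not tested.

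Markers of other cells of the meninges and vessel walls were described in the same way. Border macrophages, which live in the meninges and around vessels, had a median of 1.04 over 6 markers, with none called. In 4 of the 6 the groups were apart and higher, against 13.5% of all genes. The sum for border macrophages was 34.4, 49.9 and 83.8 CPM in wild-type and 136, 132 and 104 CPM in *Nova2-/-* mice. *Mrc1*, their mannose receptor, was at 17.5, 20.9 and 45.3 CPM against 65.0, 63.6 and 53.4 CPM, and the vessel hyaluronan receptor *Lyve1* at 2.63, 5.19 and 7.87 CPM against 12.3, 13.6 and 11.2 CPM. Wild-type mouse 3 was again the nearest to the knockout mice. *Stab1*, a scavenger receptor of such macrophages and of endothelium, which is not in the list, passed the test at 1.13. Microglia, the macrophages of the tissue itself, had a median of 0.02 with none of 14 called. Smooth muscle markers had a median of 0.93 over 5 with none called.

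Pericytes, which wrap capillaries, had a median of 0.60 over 9 markers, and summed to 148, 161 and 189 CPM against 235, 244 and 247 CPM. Of the 9, 1 was called, against 0.695% of all genes that rose. The called one was *Abcc9*, a subunit of a potassium channel, at 29.5, 32.8 and 35.9 CPM against 51.4, 47.4 and 45.4 CPM (log2 fold change 0.55, adjusted p = 0.0496 by edgeR's quasi-likelihood F test (Benjamini-Hochberg)). Endothelial cells had a median of 0.11 over 16 markers with 2 called, both higher, against 0.695% of all genes. *Kdr*, the VEGF receptor of endothelium, rose from 50.1, 48.5 and 57.7 CPM to 85.0, 82.4 and 101 CPM (0.78, standard error 0.11), and *Slc2a1*, the glucose transporter of the blood-brain barrier, from 48.3, 49.2 and 47.1 CPM to 69.8, 66.9 and 77.8 CPM (0.57, standard error 0.08). Of the defining junction genes of endothelium, *Pecam1* had 0.24 (adjusted p = 0.222) with groups apart, *Cdh5* 0.62 (adjusted p = 0.237) and *Cldn5* 0.07 (adjusted p = 0.849), the latter pair with groups that overlapped.

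**Figure D3:**
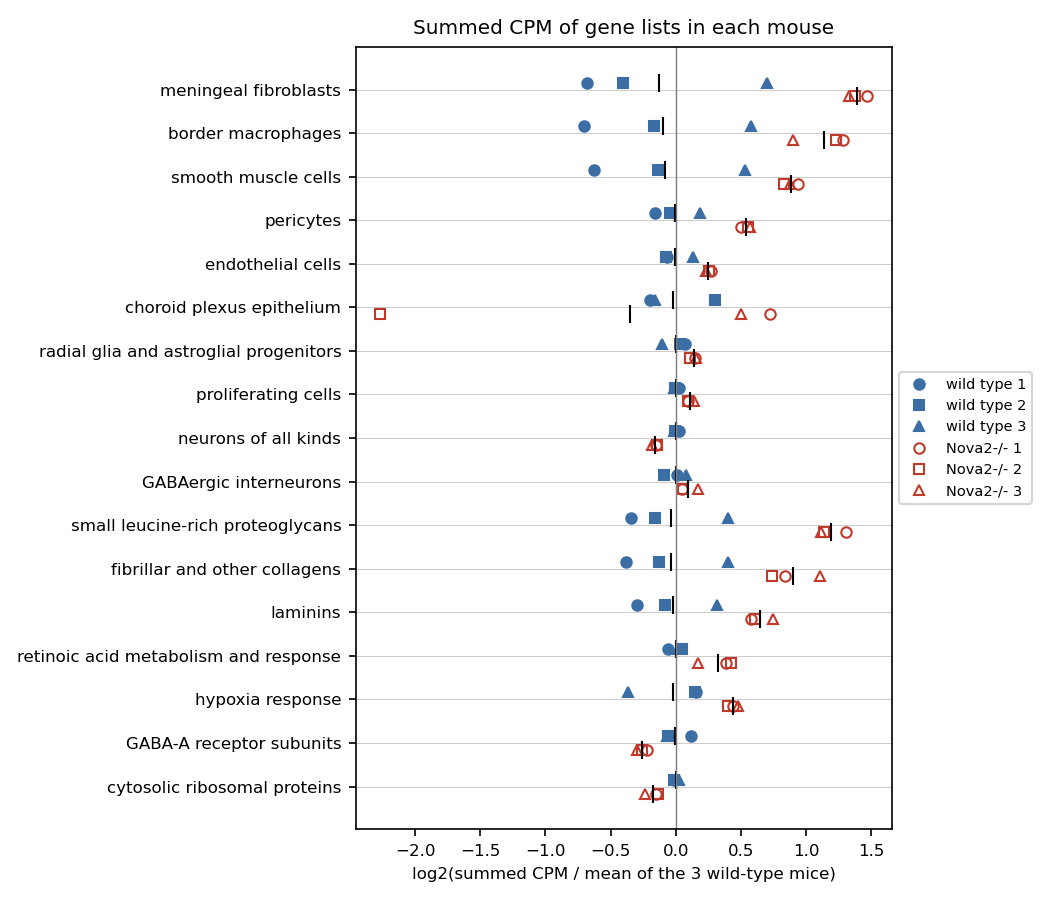
Summed CPM of the members of each list in each mouse, as the log2 ratio to the mean of the 3 wild-type mice (filled, wild-type; open, *Nova2-/-*; black bars, means of the log2 ratios of 3 mice). The meningeal fibroblast sums of the *Nova2-/-* mice (1457, 1364 and 1320 CPM) lie to the right of all wild-type mice, of which mouse 3 (853 CPM) is the nearest, and *Nova2-/-* mouse 2 is far to the left for choroid plexus (217 CPM).

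Choroid plexus, the epithelium that secretes cerebrospinal fluid, varied most within a genotype. Its markers summed to 913, 1293 and 936 CPM in wild-type mice and to 1723, 217 and 1481 CPM in *Nova2-/-* mice, so that *Nova2-/-* mouse 2 was the lowest of all 6, and none of 12 was called. Erythroid cells and ependymal cells also had no called marker, with medians of 0.32 and 0.28. Markers of skeletal muscle, bone and skin had a median of -0.27 over 6 with none called.

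Families of the extracellular matrix, chosen by symbol, had medians above that of all genes. Of 43 collagens, 6 rose, against 0.695% of all genes, none fell and 35 had a log2 fold change above 0, against 8128 of the 15691 genes tested, with a median of 0.67. Besides *Col1a1*, these were *Col5a2*, which sets the width of fibrils, *Col12a1* and *Col11a1*, and *Col4a5* and *Col4a6*, neighbouring basement membrane chains. *Col4a6* was at 10.2, 12.5 and 15.4 CPM against 26.0, 28.2 and 23.4 CPM (log2 fold change 1.02), *Col5a2* at 52.9, 58.4 and 79.9 CPM against 114, 109 and 150 CPM (0.96). Small leucine-rich proteoglycans, to which *Dcn* and *Ogn* belong, had a median of 1.23, and the knockout mice lay above all wild-type mice in each of the 9 tested, against 13.5% of all genes. Of 11 laminins, which build basement membranes, *Lama4* (0.76) and *Lamb1* (0.48) rose, against 0.695% of all genes, with a median of 0.65. *Lama4*, the laminin of vessels, was at 50.3, 49.4 and 64.2 CPM against 90.5, 90.0 and 96.9 CPM.

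Of 18 ADAMTS proteases, 3 rose, against 0.695% of all genes, and none fell: *Adamts12*, *Adamts9* (1.17) and *Adamts10* (0.58). The family's median was 0.21. Of 28 integrins, the matrix receptors, 1 rose, *Itga4* (0.59), against 0.695% of all genes, and the median was 0.36. Proteins of collagen assembly also rose: *Serpinh1*, the collagen chaperone (0.92), *Plod1*, a lysyl hydroxylase (0.76), and *Pcolce*, which aids the cleavage of procollagen (1.30). So did *Hspg2*, perlecan of basement membranes (1.07), and *Sparc*, a collagen binder (0.57). Links from matrix to the cytoskeleton rose too, among them *Tln1*, talin (0.81), *Vcl*, vinculin (0.57), *Myh9*, nonmuscle myosin (0.64), and *Flna*, filamin A (0.38). These 9 were chosen after their values were seen, from the 166 called by edgeR's quasi-likelihood F test (Benjamini-Hochberg).

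Further lists covered retinoic acid, BMP signalling, Zic factors and insulin-like growth factors. They hold receptors, response genes and transcription factors beside secreted signals, and are not lists of what the meninges send. Some of these lists share members with the fibroblast list, namely *Crabp2*, *Aldh1a2*, *Zic1* and *Igf2*, and so are not separate from it. Of 12 transcripts of retinoic acid metabolism and response, *Crabp2* rose, against 0.695% of all genes, and the median was 0.48. In 8 the groups were apart and higher, against 13.5% of all genes. *Aldh1a2*, the enzyme that makes retinoic acid in meninges, was at 5.45, 10.6 and 18.8 CPM against 39.8, 36.3 and 24.9 CPM, a log2 fold change of 1.53 that was not called (adjusted p = 0.0955 by edgeR's quasi-likelihood test). Of 20 transcripts of BMP signalling *Bmp5* rose, against 0.695% of all genes, and the median was 0.17. The 5 Zic transcription factors, which mark meninges and midline, had a median of 0.75 with none called, and summed to 59.5, 31.7 and 97.2 CPM against 110, 106 and 126 CPM. Insulin-like growth factor genes had a median of 0.35 over 11 with none called.

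Of the transcripts induced by low oxygen, 3 rose and none fell. Among all genes tested 0.695% rose. The list shares *Slc2a1* with the endothelial list above, and so is not separate from it. All 13 tested had a log2 fold change above 0, the knockout mice lay above all wild-type mice in 11, against 13.5% of all genes, and the median was 0.57. Called were *Slc2a1*, *Ddit4*, an inhibitor of mTOR that rose from 23.4, 22.1 and 18.3 CPM to 36.7, 34.9 and 41.3 CPM (0.82, standard error 0.12, adjusted p = 0.0303 by edgeR's quasi-likelihood F test (Benjamini-Hochberg)), and *Hif3a*, a member of the HIF family near *Nova2* on chromosome 7, from 3.92, 5.61 and 4.34 CPM to 9.59, 8.44 and 10.6 CPM (1.05). *Vegfa*, the ligand of *Kdr*, was at 58.2, 58.2 and 25.8 CPM against 95.0, 84.9 and 103 CPM (0.999, adjusted p = 0.111). Here wild-type mouse 3 was the lowest, on the side away from the knockout mice, the reverse of its place in the fibroblast genes. The sum was 811, 807 and 564 CPM in wild-type and 985, 962 and 1014 CPM in *Nova2-/-* mice. Outside the list, and chosen after their values were seen, *Hk2*, a hexokinase (0.90), and *Kdm3a*, a histone demethylase (0.64), rose, both known to be induced by hypoxia. The median without wild-type mouse 3 was 0.35.

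The interferon response had a median of 0.17 over 22 with *Gbp4* alone called, against 0.695% of all genes that rose. Guanylate-binding proteins, its GTPases, had a median of 1.13 over 10, with 6 apart and higher, against 13.5% of all genes. The guanylate-binding proteins summed to 10.9, 19.7 and 18.9 CPM against 32.6, 25.4 and 26.9 CPM. Their near-identical copies can share reads. Genes of MHC class I and II had a median of -0.31 over 16, with 6 above 0 and group sums that overlapped, and the median came to -0.03 when 1 mouse was left out. The called one was *H2-T24*, also a member of a family of close copies, which fell. It was 1 of the 16, against 0.363% of all genes that fell. The unfolded protein response (median 0.08), the response to p53 (0.12) and immediate early genes (-0.00) had no member that rose, and *Asns*, asparagine synthetase, fell in the first of these, at -0.45. *Asns* was 1 of 12 in its list, against 0.363% of all genes that fell.

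Over 20 pan-neuronal transcripts the median was -0.10, 12 were below 0 and none fell, and the sum was 9849, 9631 and 9583 CPM in wild-type against 8725, 8784 and 8519 CPM in *Nova2-/-* mice, groups that did not overlap. *Tubb3*, the tubulin of neurons, had -0.20 and was not called. Of the 20, 1 was called, against 0.695% of all genes that rose. The called member was *Ina*, alpha-internexin of neurofilaments, and it rose, from 103, 103 and 97.9 CPM to 136, 131 and 148 CPM (0.45, standard error 0.07, adjusted p = 0.0332 by edgeR's quasi-likelihood F test (Benjamini-Hochberg)). Projection neurons of deep and upper layers each had a median of 0.05 with none of 12 called, and subplate neurons 0.13 with none called. The deep-layer and subplate sums also did not overlap between the groups, but were higher in *Nova2-/-* mice. The ratios of their group means were 1.05 and 1.16, and the upper-layer sums overlapped. Cajal-Retzius cells, the earliest neurons at the cortical surface, had a median of 0.34, with all 8 markers above 0 and none called. Thalamic neurons had -0.12 with none called. Of 14 striatal transcripts 1 fell, against 0.363% of all genes, and none rose. It was *Foxp1* (-0.38), a transcription factor that cortical neurons express as well. The striatal median was -0.07, with 6 above 0 and 8 below, and the group sums overlapped.

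Progenitor lists also had small medians, all above 0. Radial glia had a median of 0.09 over 18, and *Tnc*, tenascin-C of their matrix, rose from 373, 391 and 413 CPM to 505, 505 and 536 CPM (0.39, standard error 0.07). *Tnc* was the 1 called of the 18, against 0.695% of all genes that rose. Intermediate progenitors had 0.16 and proliferating cells 0.18, with none called. The sums of radial glia and proliferating cells were higher in *Nova2-/-* mice with groups apart (ratios of group means 1.10 and 1.08). Those of intermediate progenitors overlapped. Astrocyte markers had a median of 0.05 over 12, where *Gja1*, connexin 43, rose from 29.0, 26.7 and 39.8 CPM to 80.7, 76.2 and 63.4 CPM (1.20, standard error 0.16, adjusted p = 0.0229 by edgeR's quasi-likelihood F test (Benjamini-Hochberg)). Of the 12 astrocyte markers 10 were above 0, among them *Aqp4* (0.05), and *Gfap* had -0.09. *Gja1* alone of the 12 was called, against 0.695% of all genes that rose. In 3 the groups were apart and higher, against 13.5% of all genes. Meningeal fibroblasts also express *Gja1*, and in which cells it rose was not tested. Of 9 transcripts of oligodendrocyte precursors, *Lhfpl3* fell (-0.55), against 0.363% of all genes, and the median was 0.01. Markers of myelin had 0.02, beside the rise of *Cldn11*.

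Of 20 interneuron transcripts 1 fell and none rose, against 0.363% and 0.695% of all genes. *Sst*, somatostatin, fell from 26.4, 24.2 and 28.1 CPM to 12.4, 14.7 and 17.2 CPM (log2 fold change -0.83, standard error 0.13, adjusted p = 0.0366 by edgeR's quasi-likelihood F test (Benjamini-Hochberg)). *Gad1* and *Gad2*, which make GABA, were at 159, 126 and 158 CPM against 155, 149 and 166 CPM, and at 128, 117 and 146 CPM against 142, 135 and 125 CPM. Both ranges overlapped. The list had a median of 0.03. *Cck*, cholecystokinin, a further cortical peptide outside the list and chosen after its values were seen, fell from 26.8, 25.1 and 20.96 CPM to 14.3, 14.9 and 13.5 CPM (-0.77, standard error 0.12). Of 14 GABA-A receptor subunits 11 were below 0, the median was -0.15, and *Gabra5*, the subunit of extrasynaptic receptors, fell from 94.0, 67.7 and 118 CPM to 46.1, 44.3 and 51.8 CPM (-0.98, standard error 0.18). *Gabra5* was the 1 called of the 14, against 0.363% of all genes that fell.

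Axon guidance ligands and receptors had a median of 0.15 over 18 with none called, and semaphorins and plexins 0.18 over 29 with none called. *Dcc*, the netrin receptor, had 0.29. Of 12 voltage-gated sodium channel genes 1 rose, *Scn9a*, the channel of sensory and some central neurons, from 47.7, 53.01 and 43.6 CPM to 106, 105 and 90.0 CPM (1.06, standard error 0.10). The family's median was 0.03, and 0.695% of all genes rose.

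Families of housekeeping transcripts had medians slightly below 0. Of 76 cytosolic ribosomal proteins 66 were below 0, with a median of -0.14, and of 36 subunits of respiratory complex I 29 were, with the same median. Tubulins had -0.12. None of the members of these 3 lists was called by edgeR's quasi-likelihood test. The ribosomal list was drawn by symbol and leaves out *Rpsa*, which fell (-0.93). The summed ribosomal protein transcripts were 15263, 15238 and 15707 CPM in wild-type and 13844, 14021 and 13069 CPM in *Nova2-/-* mice.

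The 9 transcripts that fell at least 2-fold were of no single kind. *Ccdc30*, a coiled-coil protein, had the largest drop, from 14.6, 13.1 and 19.7 CPM to 5.78, 2.33 and 5.83 CPM (log2 fold change -1.77, standard error 0.32, adjusted p = 0.0474 by edgeR's quasi-likelihood F test (Benjamini-Hochberg)). *Lmtk3*, a kinase of neurons, fell from 64.7, 77.2 and 77.4 CPM to 29.2, 29.4 and 38.2 CPM (-1.18, standard error 0.13, adjusted p = 0.0114) and was the most abundant. *Nudt19*, a hydrolase of coenzyme A, had -1.26, *Amn*, a coreceptor for vitamin B12 uptake, -1.52, *Pglyrp1*, which binds bacterial walls, -1.65, and *H2-T24* -1.34. *Gm19345* had -1.58, but it overlaps *Ceacam16* in position, and reads of the pair cannot be told apart without strand, whose use in the counting is not given in the sources used here.

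Among smaller falls were genes of synapses and signalling, chosen after their values were seen from the called ones. *Dlg3*, a scaffold of glutamate receptors, was at 117, 119 and 115 CPM against 77.7, 71.4 and 78.4 CPM (log2 fold change -0.63, standard error 0.07, adjusted p = 0.00977 by edgeR's quasi-likelihood F test (Benjamini-Hochberg)). *Cacna2d3*, an auxiliary calcium channel subunit, had -0.77, *Adcy1*, a calcium-stimulated adenylyl cyclase, -0.37, *Camk4*, a calmodulin kinase, -0.34, *Syt16* -0.35 and *Actl6b*, a neuronal subunit of chromatin remodelling, -0.60. *Mc4r*, the melanocortin receptor, had -0.75. *Cdr1* had -0.91, and its reads cannot be told from those of the antisense circular RNA at the same place. *Rpsa* had -0.93, but it has many processed copies in the genome, and *Amy1* (-0.86) has close relatives, so that both are uncertain. In 33 of the 57 transcripts that fell, wild-type mouse 2, the shallowest library, was the lowest of the wild-type mice (57.9%), against 28.9% of all genes tested.

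The deleted gene lies on chromosome 7, at chr7:18925888-18965319 of GRCm38.p6, and the genes around it were compared with those of other chromosomes. Of 45 genes tested within 2 Mb of *Nova2*, with *Nova2* itself left out, 5 were called (11.1%), against 139 of 12958 on the other chromosomes (1.07%). They were *Pglyrp1*, *Opa3* and *Gm19345*, which fell, and *Gipr* and *Hif3a*, which rose. The groups were apart in 22 of the 45 (48.9%), against 26.7% on the other chromosomes, and the median size of the log2 fold change was 0.37 against 0.16. The share called was 10.3% within 1 Mb, 7.58% within 5 Mb and 2.67% within 10 Mb, where the called genes were the same 5. Between 10 and 30 Mb from *Nova2* 1.75% were called. *Gipr*, the receptor of the gut hormone GIP, was at 19.2, 16.8 and 10.8 CPM against 35.8, 40.8 and 36.0 CPM (log2 fold change 1.27, standard error 0.19), and *Opa3*, a mitochondrial protein, at 18.7, 19.7 and 18.7 CPM against 13, 12.5 and 12.6 CPM (-0.58, standard error 0.10). The called genes of the window went in both directions and lie on both sides of *Nova2*.

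In the litters of the *Nova1-/-* line, where *Nova2* is intact, the groups were apart in 9 of 47 genes of the same window (19.1%). The share was 13.6% on the other chromosomes, and the median size of the log2 fold change was 0.07 against 0.08. *Hif3a*, inside the window, was called there at 1.29 (adjusted p = 0.00827 by edgeR's quasi-likelihood F test (Benjamini-Hochberg)). In all, 2 of 15901 genes tested were called in *Nova1-/-* cortex. In the *Nova2* litters the share called in the window was 24.4% against 5.49% on the other chromosomes with DESeq2. It was 35.6% against 9.26% without wild-type mouse 3 and 4.44% against 0.137% without wild-type mouse 1. Without wild-type mouse 2 or any of *Nova2-/-* mice 1 to 3, 0 of 45 were called. The share on the other chromosomes was then 0.0457% to 0.145%. With *Xist* as a covariate none were called in the window or on the other chromosomes. Positions were available for 89.3% of the genes tested. Around a targeted allele, sequence of the founding strain can remain after backcrossing, and its part in these values was not tested.

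**Figure D4:**
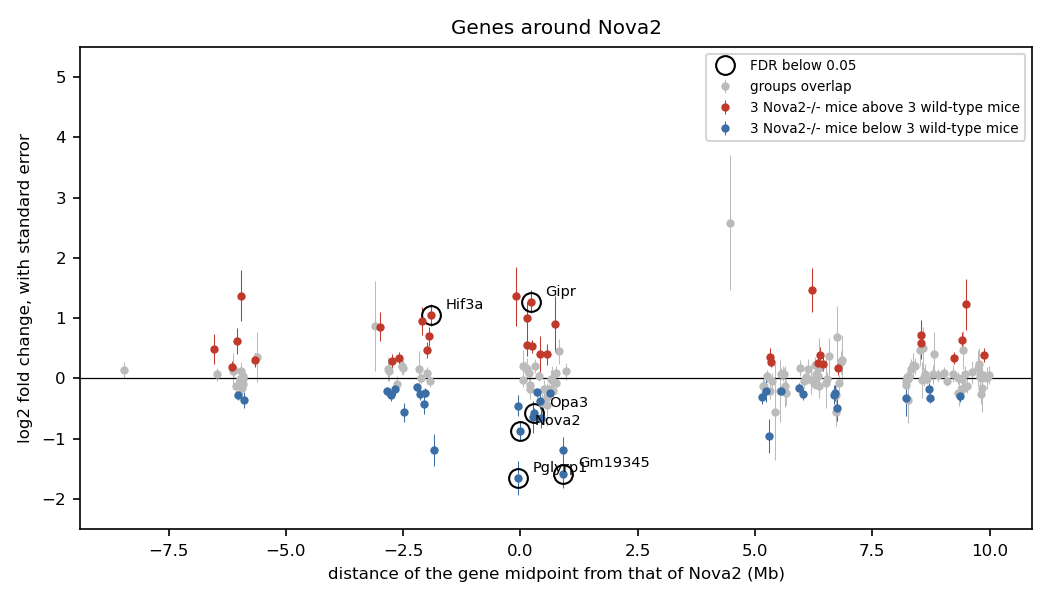
Log2 fold change with its standard error (vertical axis) of genes tested near *Nova2* against the distance of their midpoints from it in Mb (horizontal axis). Red and blue points are genes whose 3 *Nova2-/-* mice lay above or below all wild-type mice, and rings mark an FDR below 0.05, which 5 of the 45 neighbours within 2 Mb and *Nova2* itself reached.

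The *Nova1-/-* litters, which share no sample with the *Nova2* litters, give each transcript's value in a second knockout. There, 2 of 15901 genes tested were called (0.0126%). The 32 transcripts that rose 2-fold in *Nova2-/-* cortex had a median log2 fold change of 1.22 there and of -0.17 in *Nova1-/-* cortex, where 8 of them had the same sign. These 32 were chosen for their change in *Nova2-/-* cortex, so that a smaller change elsewhere is no finding about them. *Hif3a* was the one called in both, with 1.05 in *Nova2-/-* and 1.29 in *Nova1-/-* cortex, and the difference of its changes was not called (adjusted p = 0.604 by edgeR's quasi-likelihood F test, which called this difference for 1.83% of all genes tested for it). Of the 9 that fell, 5 had the same sign in *Nova1-/-* cortex and none were called there. *Cpne3* had -0.15 in *Nova1-/-* cortex and a difference of 1.47 (standard error 0.12), and *Rab12* had 0.04 and a difference of -0.95 (standard error 0.09). *Col1a1* had -0.12 and *Cldn11* -0.36, against 1.50 and 1.76 in *Nova2-/-* cortex.

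**Figure D5:**
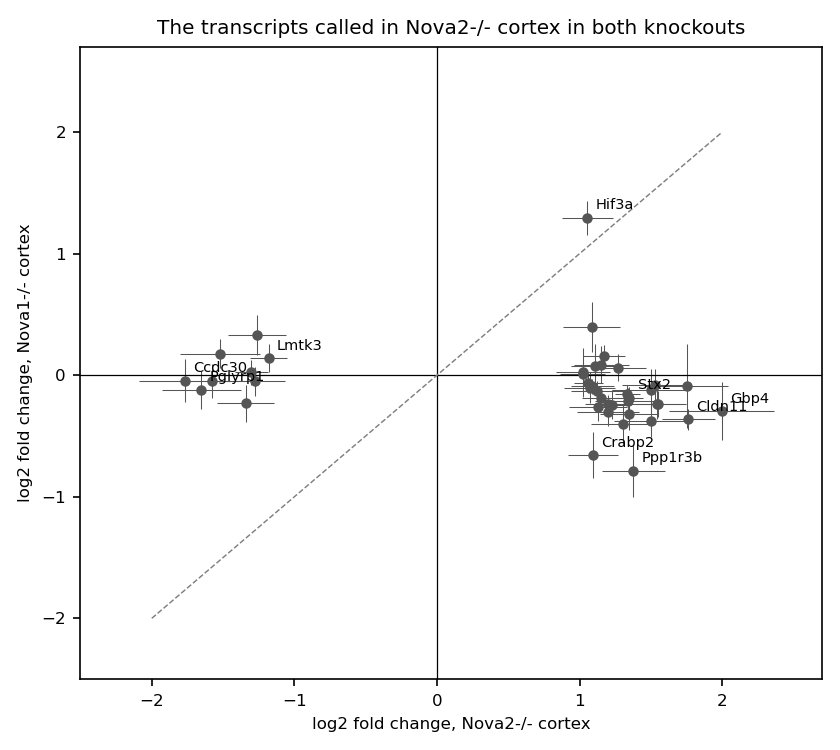
Log2 fold change in *Nova1-/-* cortex (vertical axis) against that in *Nova2-/-* cortex (horizontal axis) for the 41 transcripts changed 2-fold in the latter, with standard errors and the diagonal of equal change as a dashed line. *Hif3a* (1.05 and 1.29) lies near the diagonal, and *Cldn11* (1.76 and -0.36) lies on the other side of 0 on the vertical axis.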

How the data were processed

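RNA of dissected cortex was prepared with Trizol, ribosomal RNA was removed with Ribo-Zero, and TruSeq libraries were read from both ends on a HiSeq instrument. OLego aligned the reads to mm10, and the authors deposited expected counts per gene symbol, not normalized, of which 7.48% to 11.7% per mouse were not whole numbers. The submitters' processing notes name mm9 and edgeR. The counting program and annotation are not given in the sources used here. The authors' own fold changes and FDR values in the table were not used.

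Expected counts were rounded. In R 4.3.3, edgeR 4.0.16 gave TMM factors, dropped genes with low counts (filterByExpr), and ran the quasi-likelihood F test, adjusted by Benjamini-Hochberg over all genes tested. Calls needed an FDR below 0.05, and 2-fold calls also a log2 change of 1 or more. Each fit held the 6 mice compared, and the difference between knockouts was fitted on all 12 cortex samples. Errors of changes are standard errors of the fit. The methods call the 3 mice per group biological replicates. Wild-type mice 1 to 3 were taken as the *Nova2* litters from labels and methods. In simulated counts for 15562 genes, 186 of 200 genes with a log2 fold change of 2 in size were recovered, with 9 false calls. The called changes were smaller, with a median size of 0.76 and a largest of 1.996. The simulated mice of a group shared 1 mean CPM per gene, unlike the wild-type mice here. Recovery of changes of the reported sizes was not tested.

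The members and gene lists were chosen with earlier results of these data known. Named genes are *Nova2*, *Nova1*, the 12 largest changes in each direction past both limits with groups apart, and for each list its first 3 listed members (for families, the 3 most abundant) and up to 4 called ones. Others are named as chosen later, and some results are not reported here. The alternatives tried were leaving out the filter, requiring 10 counts in each mouse, upper-quartile scaling, DESeq2 1.42.0, edgeR's exact test, a replicate block, all 12 samples in one fit, an FDR limit of 0.1, each mouse left out and, chosen after seeing the data, *Xist* as a covariate (log2 of CPM plus 1). Positions and promoters came from RefSeq tables of GRCm38.p6. Figures used Python 3.11.15, pandas 2.3.3 and matplotlib 3.10.9.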

Additional observations from a re-analysis of the deposited data

How the results depend on the processing

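The fit used above gave 41 transcripts changed 2-fold in *Nova2-/-* cortex. This count was 67 without a filter, 126 with DESeq2, 170 with edgeR's exact test and 185 with all 12 samples in one fit. It was 117 at an FDR below 0.1 and 0 with *Xist* as a covariate, added after the data had been seen. Leaving out 1 mouse gave 4 to 254, the highest without wild-type mouse 3. The count at any fold, 166 in the fit used above, was 845 with DESeq2 and 624 with the exact test. With all 12 samples it was 1334, where 686 rose and 648 fell. It was 0 with *Xist* as a covariate, and 7 to 1433 without 1 mouse. In *Nova1-/-* cortex DESeq2 called 4, and leaving out 1 mouse gave 1 to 7. The log2 fold change of *Nova2* was -0.76 with *Xist* as a covariate and -0.98 to -0.73 without 1 mouse. The cause of these changes was not tested. Without wild-type mouse 2 the log2 fold changes of *Nova1*, *Gad1* and *Gad2*, none of them called, turned to -0.029, -0.015 and -0.034, and without 1 mouse they reached up to 0.25, 0.14 and 0.12. *Gad1* had -0.051 with *Xist* as a covariate. The median of Y-linked transcripts was 2.60 with *Xist* as a covariate. A replicate block gave 55 at 2-fold, 31 of the 41 among them, and 220 at any fold. The methods name no block, so the fit used above had none. Same-numbered mice had correlations of 0.113, 0.00658 and 0.168 of their deviations, and mice of different number -0.202 to 0.121. Whether equal numbers mark pairs of littermates is not given in the labels and was not tested. Of the other values for named genes, 878 kept direction and side of the threshold, 505 lost the call and 26 gained it, and 681 of the list medians moved by less than the median standard error of their members and 31 by more.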

Other observations

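Imprinted genes, expressed from 1 parental copy and known to control fetal growth, were among the called ones, and were chosen after their values were seen. *H19* stood at 50.3, 55.8 and 69.4 CPM in wild-type and 149, 126 and 115 CPM in *Nova2-/-* mice (log2 fold change 1.15, standard error 0.14), *Mest* at 126, 116 and 137 CPM against 252, 216 and 274 CPM (0.97, standard error 0.10), and *Grb10* at 103, 94.3 and 110 CPM against 157, 137 and 164 CPM (0.58, standard error 0.09). The knockout mice were above all wild-type mice for each. In *Nova1-/-* cortex their log2 fold changes were -0.19, 0.01 and 0.02.

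Some abundant transcripts rose with little spread within the groups. *Syne2*, a giant nuclear envelope protein, was at 264, 257 and 246 CPM against 402, 405 and 408 CPM (0.66, standard error 0.06), *Vcan*, versican of the brain matrix, at 452, 439 and 396 CPM against 590, 604 and 568 CPM (0.45), and *Unc13a*, which primes synaptic vesicles, at 188, 201 and 181 CPM against 266, 273 and 262 CPM (0.49). *Tomm20*, of the mitochondrial import pore, fell from 236, 205 and 259 CPM to 161, 163 and 161 CPM (-0.53). Olfactory receptor transcripts, which the cortex hardly makes, summed to 235 CPM in wild-type mouse 2 and to 13.5 to 20.1 CPM in the other 5 mice.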
